A study of Mus musculus with 5 samples.

Results

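The E proteins and the Id proteins are a family of helix-loop-helix regulators, represented here by 6 of the 57186 annotated mouse genes in the deposited tables. The 6 genes were taken by symbol. Id1, Id2 and Id3 encode the Id proteins, and Tcf3, Tcf4 and Tcf12 encode the E proteins. The RNA came from Tfr cells (follicular regulatory T cells), the regulatory T cells of the B cell follicle, sorted from spleen as live CD4 T cells positive for Foxp3, CXCR5, PD-1 and ICOS. Mice of 2 genotypes were compared, both 21 days after imiquimod, an agonist of a toll-like receptor. Cebpa_KO (2 libraries) came from Foxp3-Cre Cebpa-flox/flox mice, in which Cre follows the Foxp3 gene, so that Cebpa is deleted in regulatory T cells. WT (3 libraries) came from Foxp3-GFP reporter mice, so the groups also differ at the Foxp3 locus. Each library was a pool of cells from several mice, and age and sex are not in the labels.

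E proteins bind DNA at E-box sequences, as dimers with each other or with other helix-loop-helix factors, and they shape gene expression at most steps of lymphocyte development. Id proteins have the dimerization domain but lack the DNA-binding region, so an E protein held by an Id protein cannot bind its sites. In T cells Id3 is known from naive, memory-like and follicular helper cells and Id2 from effector cells, and in mouse regulatory T cells loss of both has been linked to more Tfr-like cells. Despite their symbols, Tcf3, Tcf4 and Tcf12 are not relatives of Tcf7, the T cell factor of the Wnt pathway.

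Levels are given as scaled TPM, TPM (transcript abundance per length and depth) after each library was divided by 1 factor. Comparisons between genes rest on this readout, and some of them differ by read depth per base. Depth was 6.80 and 6.76 gigabases aligned in Cebpa_KO libraries, against 6.83, 7.08 and 6.77 gigabases in WT libraries. Cebpa, the deleted gene, had 0.317 and 0.550 scaled TPM in Cebpa_KO, against 12.9, 17.7 and 12.8 scaled TPM in WT (log2 change -3.42 ± 0.20 SE, limma adjusted p = 0.00371). Without Cebpa_KO replicate 2 its log2 difference was -3.54, with a limma adjusted p of 0.0512. Foxp3, the gene that defines the sorted cells, had 6.74 and 5.58 scaled TPM in Cebpa_KO, against 83.0, 107 and 105 scaled TPM in WT (log2 change -3.79 ± 0.15 SE, limma adjusted p = 0.00115). Of 10 markers of sorted Tfr cells, 7 were lower in Cebpa_KO by limma (9.82% of tested genes), and the other 3, Cd4, Pdcd1 and Ikzf2, did not pass. All 10 were lower in both Cebpa_KO libraries than in any WT library (28.0% of tested genes). Xist had 11.4 and 10.7 scaled TPM in Cebpa_KO and at most 0.0220 scaled TPM in WT, and the Y-linked gene Ddx3y was listed at 0 in both Cebpa_KO libraries and had 42.0 to 46.4 scaled TPM in WT. Sex, the Foxp3 allele and the Cebpa genotype therefore cannot be told apart in any result below. WT replicate 3 stood apart from the other WT libraries, with 690.3 scaled TPM of the heat shock gene Hspa1a, against 0.911 and 0.684 scaled TPM in WT replicates 1 and 2 (1147 and 1238 scaled TPM in Cebpa_KO). Both Cebpa_KO libraries were thus above all WT libraries for Hspa1a, without passing by limma (adjusted p = 0.150). The part of this difference in the results below was not tested. In these bulk samples, fewer cells of a type and less RNA per cell cannot be told apart.

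All 6 genes passed the filter on low values (TPM of 1 or more in 2 or more libraries) and were tested with the 16254 genes that did. By limma at an adjusted p of 0.05, Id3 passed as lower in Cebpa_KO, a direction in which 9.82% of tested genes passed (19.7% in either direction). Id1 passed as higher (9.93% of tested genes), but it met the filter only through the 2 Cebpa_KO libraries, where it was high, so nothing is read from its call. Id2 and the 3 E protein genes did not pass. The groups did not overlap for Id2, which lay higher in both Cebpa_KO libraries (28.7% of tested genes), nor for Id3 and Tcf12, which lay lower (28.0% of tested genes), and 56.7% of tested genes did not overlap in either direction. Id1 did not overlap either, with the same limit from the filter. An exact permutation test of a single gene over these libraries cannot give a two-sided p below 0.1, the value that Id3 and Tcf12 reached.

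**Figure D1:**
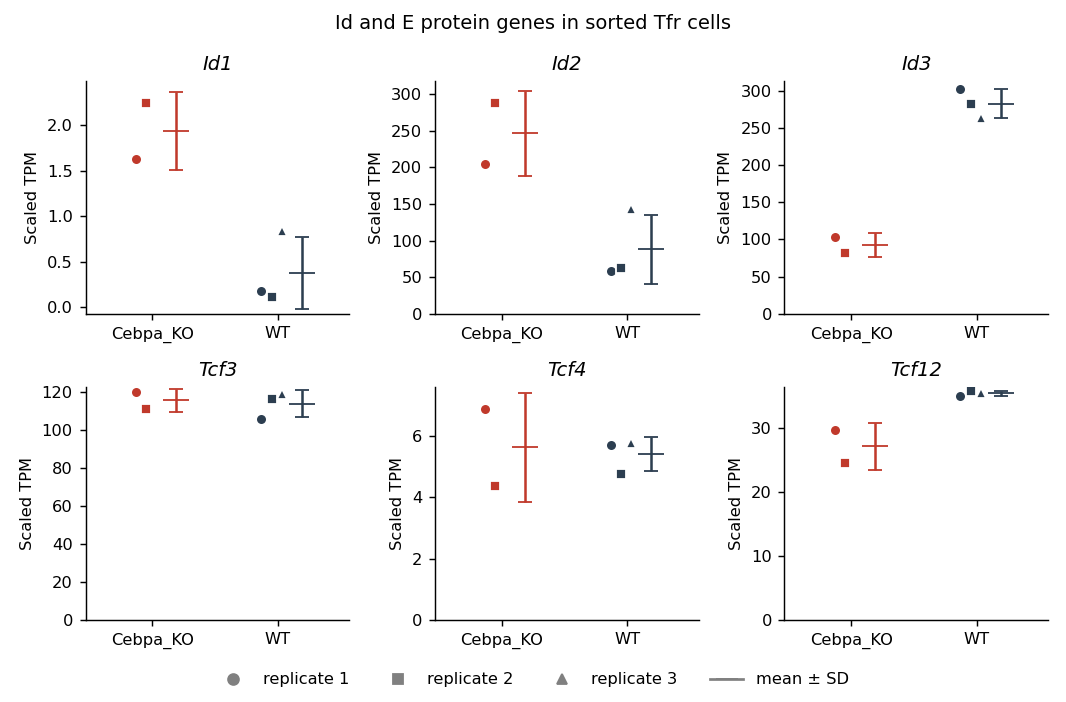
Scaled TPM of each Id and E protein gene in every library, Cebpa_KO in red and WT in dark blue, with the mean and SD of each group beside the points; the vertical axes differ between panels. Id2 and Id1 lie higher in Cebpa_KO and Id3 lower, WT replicate 3 (triangle) is the highest WT library for Id2 and Id1, and Tcf3 and Tcf4 overlap.

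Id3 was the most abundant of the 6 genes in WT and fell in Cebpa_KO. Id3 (ENSMUSG00000007872, mm39 chromosome 4, plus strand, 135870808 to 135873066) had 103 and 81.4 scaled TPM in Cebpa_KO libraries, against 302, 283 and 264 scaled TPM in WT libraries. The highest Cebpa_KO library was below the lowest WT library by more than the range within either group. Means were 92.4 ± 15.6 scaled TPM in Cebpa_KO (SD, n = 2) and 282.8 ± 19.0 scaled TPM in WT (SD, n = 3), a level 3.06-fold lower in Cebpa_KO. The log2 change was -1.61 ± 0.13 SE (95% interval -1.93 to -1.29, limma adjusted p = 0.00550). It was larger than the spread between libraries. WT replicate 3 did not stand apart for Id3, at 0.903 times the mean of the other WT libraries. Without Cebpa_KO replicate 2 the log2 change of Id3 was -1.44 with a limma adjusted p of 0.0653, and without Cebpa_KO replicate 1 it was -1.78 with a limma adjusted p of 0.0416. In these fits the spread comes from WT alone, and the lone Cebpa_KO library is assumed to vary like WT.

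Id2 lay on the other side, higher in both Cebpa_KO libraries without passing the threshold. Id2 (ENSMUSG00000020644, mm39 chromosome 12, minus strand, 25143798 to 25147139) had 205 and 288 scaled TPM in Cebpa_KO libraries, against 58.4, 63.0 and 143 scaled TPM in WT libraries. Both Cebpa_KO libraries were above all WT libraries, and 1 WT library lay between the groups. Means were 246.5 ± 58.4 scaled TPM in Cebpa_KO (SD, n = 2) and 88.0 ± 47.4 scaled TPM in WT (SD, n = 3), a 2.80-fold difference. The log2 difference was 1.58 ± 0.42 SE (95% interval 0.52 to 2.63, limma adjusted p = 0.0536). The library in between was WT replicate 3, at 2.35 times the mean of WT replicates 1 and 2. WT replicate 3 was the WT library nearest to Cebpa_KO for 35.3% of the 9213 tested genes whose groups did not overlap. Cebpa_KO averaged 1.73 times WT replicate 3 and 4.06 times the mean of the other WT libraries. Without WT replicate 3 the log2 change was 1.98 (limma adjusted p = 0.00703), in a fit where 13.7% of tested genes passed as higher, 11.5% as lower and 25.1% in either direction.

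Other cells of the spleen also express Id2, and their marker genes varied between pools. The summed neutrophil markers were 302 and 64.1 scaled TPM in Cebpa_KO, against 17.1, 10.9 and 73.4 scaled TPM in WT. The summed B cell markers were 253 and 56.9 scaled TPM in Cebpa_KO, against 135, 135 and 184 scaled TPM in WT. Both sums were higher in Cebpa_KO replicate 1 than in Cebpa_KO replicate 2, and Id2 was lower in replicate 1 (205 and 288 scaled TPM). The CD8 T and NK cell markers summed to 37.2 and 29.9 scaled TPM in Cebpa_KO, against 72.2, 69.2 and 86.4 scaled TPM in WT. Cd8a, which defines CD8 T cells, was at most 0.200 scaled TPM in every library. Cd8b1, the other CD8 chain gene, had 16.1 and 14.7 scaled TPM in Cebpa_KO, against 21.6, 23.5 and 17.3 scaled TPM in WT. The summed plasma cell markers were 230.0 and 72.9 scaled TPM in Cebpa_KO, against 57.7, 34.6 and 561 scaled TPM in WT. The summed macrophage and monocyte markers were 122 and 48.5 scaled TPM in Cebpa_KO, against 87.0, 61.0 and 109 scaled TPM in WT, and overlapped. Every marker sum in this paragraph was highest of WT in WT replicate 3, where Id2 was also the highest of WT. Each was also higher in Cebpa_KO replicate 1 than in Cebpa_KO replicate 2, the reverse of Id2. The part of these other cells in the Id2 values was not tested.

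Id1, best known as a target of BMP signals outside the T cell lineage, had the lowest TPM of the 6 genes in every library. Id1 (ENSMUSG00000042745, mm39 chromosome 2, plus strand, 152578171 to 152579330) had 1.64 and 2.24 scaled TPM in Cebpa_KO libraries, against 0.181, 0.112 and 0.835 scaled TPM in WT libraries. Both Cebpa_KO libraries were above WT, and WT replicate 3 was again the nearest. Means were 1.94 ± 0.430 scaled TPM in Cebpa_KO (SD, n = 2) and 0.376 ± 0.399 scaled TPM in WT (SD, n = 3), a 5.15-fold difference. Cebpa_KO averaged 2.32 times WT replicate 3 and 13.2 times the mean of the other WT libraries. The log2 difference on the scale of scaled TPM + 1, which understates the change of a gene this low, was 1.12 ± 0.27 SE (95% interval 0.44 to 1.81, limma adjusted p = 0.0437). Since Id1 had a TPM of 1 or more in the 2 Cebpa_KO libraries and in 0 WT libraries, it could be tested only because it was high in Cebpa_KO. The call was lost without WT replicate 1 or WT replicate 2 (limma adjusted p = 0.101 and 0.112). Without either Cebpa_KO library Id1 no longer met the filter and had no test. The level in WT replicates 1 and 2 rested on a read depth of 0.526 and 0.302 reads per base.

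Id2 and Id3 together made up nearly all Id transcripts and lay on opposite sides of WT, Id3 lower and Id2 higher without passing, so the sequences just before their start sites are shown side by side. They are the 250 bases before each RefSeq start, on GRCm38.p6, a different build from that of the deposited tables, at chr4:136143572-136143821 on the plus strand (Id3) and chr12:25096093-25096342 on the minus strand (Id2). Both run 5′ to 3′ toward the start site, and capitals mark the E-box.
Id3: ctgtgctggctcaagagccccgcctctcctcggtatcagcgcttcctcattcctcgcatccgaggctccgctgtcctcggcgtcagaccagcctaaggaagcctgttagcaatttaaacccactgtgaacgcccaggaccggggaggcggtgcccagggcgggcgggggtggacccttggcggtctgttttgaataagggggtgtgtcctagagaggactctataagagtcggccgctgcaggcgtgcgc
Id2: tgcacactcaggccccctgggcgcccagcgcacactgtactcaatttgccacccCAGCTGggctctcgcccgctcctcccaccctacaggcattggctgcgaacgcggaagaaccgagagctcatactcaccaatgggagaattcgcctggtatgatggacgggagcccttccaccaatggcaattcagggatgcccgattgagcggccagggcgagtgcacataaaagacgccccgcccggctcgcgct
Both windows had a GC content of 62.8%, above the median of 52.4% over 32851 mouse promoter windows of the same length. The E-box letters CANNTG were found 1 time before Id2, as CAGCTG starting 196 bases before the start, and 0 times before Id3, whereas 66.2% of all windows hold them on either strand. The letters TTNNGNAA, a loose form of the C/EBP site, were in neither window and in 36.8% of all windows. The letters TTCNNNGAA, a form of the STAT site, were in neither window and in 7.02% of all windows. The search covered both strands. A match describes letters only, and no match says only that those letters are not in these 250 bases. Promoter windows were found for 4 of the 6 genes. The Tcf3 window held 1 E-box match and none of the other motifs. The 3 windows of Tcf12 held 1 C/EBP match in 1 window and an E-box match in each of the other 2.

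Of the 3 E protein genes, 0 passed by limma (0 higher and 1 lower at an unadjusted p under 0.05, beside 18.8% of tested genes in each direction). Tcf3, the most abundant of them, is required in mice for early B cell development and for restraint of the T cell lineage before the antigen receptor is made. Tcf3 (ENSMUSG00000020167, mm39 chromosome 10, minus strand, 80245348 to 80269481) had 119.9 and 111 scaled TPM in Cebpa_KO libraries, against 106, 116 and 119 scaled TPM in WT libraries. The groups overlapped. Means were 115.5 ± 6.18 scaled TPM in Cebpa_KO (SD, n = 2) and 113.8 ± 6.99 scaled TPM in WT (SD, n = 3). The log2 difference was 0.02 ± 0.09 SE, and its 95% interval, -0.20 to 0.24, excludes changes of the size seen for Id3 (limma adjusted p = 0.876).

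Tcf12, which encodes the E protein HEB, a partner of the Tcf3 products in thymocytes, was lower in both Cebpa_KO libraries without passing the test. Tcf12 (ENSMUSG00000032228, mm39 chromosome 9, minus strand, 71749970 to 72019153) had 29.7 and 24.5 scaled TPM in Cebpa_KO libraries, against 35.0, 35.7 and 35.4 scaled TPM in WT libraries. The WT libraries lay close together and the Cebpa_KO libraries did not overlap them. Means were 27.1 ± 3.68 scaled TPM in Cebpa_KO (SD, n = 2) and 35.4 ± 0.348 scaled TPM in WT (SD, n = 3), and the log2 difference was -0.38 ± 0.11 SE (95% interval -0.65 to -0.10, limma adjusted p = 0.0660). Read depth per base gave a smaller difference, with 28.3 and 26.7 reads per base in Cebpa_KO, against 31.5, 32.7 and 29.2 reads per base in WT. A processed pseudogene, Rpl15-ps2, lies inside Tcf12 on the opposite strand and had 43.0 and 39.5 scaled TPM in Cebpa_KO, against 35.9, 32.2 and 29.2 scaled TPM in WT. No source used here gives the strand setting of the counting, and reads of the 2 genes cannot be told apart by strand.

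Tcf4, which encodes the E protein that plasmacytoid dendritic cells depend on, was low and did not differ beyond its spread. Tcf4 (ENSMUSG00000053477, mm39 chromosome 18, plus strand, 69476427 to 69822150) had 6.90 and 4.38 scaled TPM in Cebpa_KO libraries, against 5.72, 4.76 and 5.77 scaled TPM in WT libraries. The Cebpa_KO libraries lay on either side of the WT libraries. Means were 5.64 ± 1.78 scaled TPM in Cebpa_KO (SD, n = 2) and 5.42 ± 0.568 scaled TPM in WT (SD, n = 3), and the log2 difference was 0.03 ± 0.21 SE (95% interval -0.50 to 0.55, limma adjusted p = 0.936). Siglech, a marker that defines plasmacytoid dendritic cells, was at most 0.486 scaled TPM in any library. The 6 markers of these cells summed to 172 and 65.3 scaled TPM in Cebpa_KO, against 69.0, 66.8 and 89.0 scaled TPM in WT, and Ly6d and Pacsin1 made up nearly all of each sum.

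**Figure D2:**
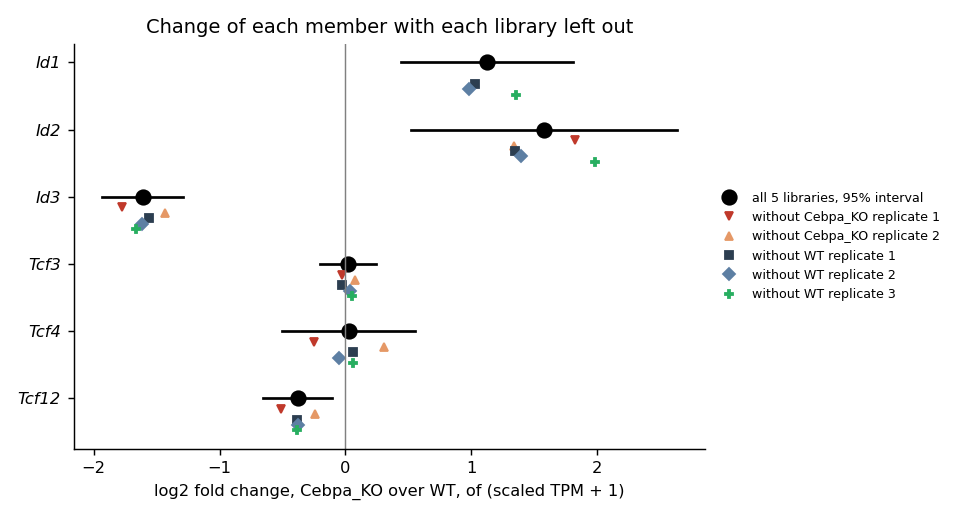
Log2 change of each gene, Cebpa_KO over WT, on the scale of scaled TPM + 1: the black point and line give all 5 libraries with the 95% interval, and the small symbols the same value with 1 library left out. Id3 stays between -1.78 and -1.44, Id2 between 1.34 and 1.98, and Tcf3 and Tcf4 change sign; Id1 has no value without either Cebpa_KO library.

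The TPM levels of the 6 genes had the same order in both Cebpa_KO libraries, with Id2 highest, followed by Tcf3, Id3, Tcf12, Tcf4 and Id1. In WT replicates 1 and 2 Id3 was highest, followed by Tcf3, Id2, Tcf12, Tcf4 and Id1. Id2 and Id3 thus held each other's place in the 2 genotypes. In WT replicate 3 Id2 was above Tcf3 (143 and 119 scaled TPM). Tcf3 and Id2 overlapped in WT and did not differ beyond their spread, while no other neighbours in either order overlapped. Id3 stood at the 88.1 and 84.7 percentile of the tested genes' levels in Cebpa_KO, against the 96.8, 96.7 and 96.2 percentile in WT. Id2 stood at the 94.5 and 96.4 percentile in Cebpa_KO, against the 79.7, 81.1 and 92.0 percentile in WT.

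The summed level of the 3 Id genes overlapped between the genotypes, while its make-up did not. The sum was 310 and 371 scaled TPM in Cebpa_KO libraries, against 361, 346 and 407 scaled TPM in WT libraries. It averaged 341 ± 43.3 scaled TPM in Cebpa_KO (SD, n = 2) and 371 ± 32.2 scaled TPM in WT (SD, n = 3). Id2 made up 66.1% and 77.5% of the sum in Cebpa_KO, against 16.2%, 18.2% and 35.0% in WT. Id3 made up 33.3% and 21.9% in Cebpa_KO, against 83.7%, 81.8% and 64.8% in WT. Id1 stayed at 0.604% or less in every library. By TPM there were 1.98 and 3.54 Id2 transcripts for each Id3 transcript in Cebpa_KO, against 0.194, 0.223 and 0.541 in WT. Id2 was thus the major Id transcript in both Cebpa_KO libraries and Id3 in all 3 WT libraries. By read depth the excess of Id2 in Cebpa_KO was smaller, at 308 and 428 reads per base against 218 and 168 for Id3. WT replicate 3 had the highest Id2 share of the WT libraries and still lay on the Id3 side.

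The summed level of the 3 E protein genes was 156 and 140.0 scaled TPM in Cebpa_KO libraries, against 147, 157 and 160.3 scaled TPM in WT libraries. Means were 148 ± 11.6 scaled TPM in Cebpa_KO (SD, n = 2) and 155 ± 7.12 scaled TPM in WT (SD, n = 3), with overlapping groups. Tcf3 supplied most of it, 76.6% and 79.4% in Cebpa_KO, against 72.2%, 74.2% and 74.3% in WT. The share of Tcf12 was 19.0% and 17.5% in Cebpa_KO, against 23.9%, 22.8% and 22.1% in WT. The share of Tcf3 was higher in both Cebpa_KO libraries and that of Tcf12 lower, while the level of Tcf3 overlapped. Tcf4 made up 3.04% to 4.41% across all libraries.

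Id transcripts outnumbered E protein transcripts in every library. The ratio of the sums was 1.98 and 2.65 in Cebpa_KO libraries, against 2.46, 2.20 and 2.54 in WT libraries, and the groups overlapped. Built on read depth per base in place of TPM, a readout chosen after the data were seen, the ratio was 1.93 and 2.40 in Cebpa_KO, against 2.94, 2.59 and 2.78 in WT. On that readout the Cebpa_KO libraries were below all WT libraries, so whether the balance differed depends on the readout. Taken alone, Id3 was at 0.863 and 0.732 transcripts for each Tcf3 transcript in Cebpa_KO, against 2.85, 2.43 and 2.22 in WT. Id2 was at 1.71 and 2.59 for each Tcf3 transcript in Cebpa_KO, against 0.552, 0.541 and 1.20 in WT. No test was made of sums, shares or ratios.

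**Figure D3:**
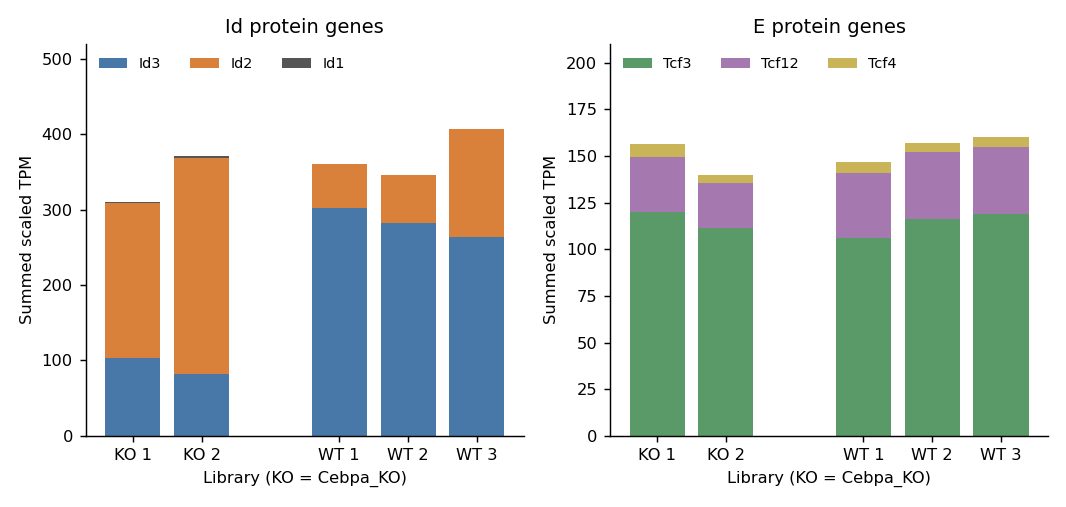
Summed scaled TPM of the Id genes (left) and the E protein genes (right) in each library, Cebpa_KO left of WT, with each gene as a stacked segment; the 2 vertical axes differ. Id2 fills most of the Id bar in both Cebpa_KO libraries (66.1% and 77.5%) and Id3 in all WT libraries (64.8% to 83.7%), while Tcf3 fills most of every E protein bar.

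The deposited tables also give read depth per base, which bears on how firmly each level is known. Id3 had 218 and 168 reads per base in Cebpa_KO, against 620.2, 608 and 523 reads per base in WT. Id2 had 308 and 428 reads per base in Cebpa_KO, against 84.0, 94.7 and 197 reads per base in WT. Both genes kept their direction, with mean read depth at 0.336 times WT for Id3 and 2.97 times WT for Id2. Tcf3 was at 245 and 223 reads per base in Cebpa_KO, against 208, 238 and 230.0 reads per base in WT. These 3 genes rest on deep coverage. Tcf4 had 0.514 and 0.369 reads per base in Cebpa_KO, against 0.403, 0.414 and 0.569 reads per base in WT. In all libraries its FPKM was 28.6 to 41.2 times the value that its read depth and the aligned bases give, a factor that exceeded 10 for 1.84% to 2.06% of tested genes in a library. The factor was 2.71 to 3.41 for Tcf12, 1.98 to 2.04 for Id2 and 1.00 to 1.49 for the other 3 genes. The cause was not tested. Id1 had 4.00 and 5.50 reads per base in Cebpa_KO, against 0.526, 0.302 and 1.93 reads per base in WT. By read depth Id1 was thus above Tcf4 in every library but WT replicate 2, and in WT replicate 3 Id2 was below Tcf3, each the reverse of the order by TPM, so parts of that order depend on the readout.

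**Figure D4:**
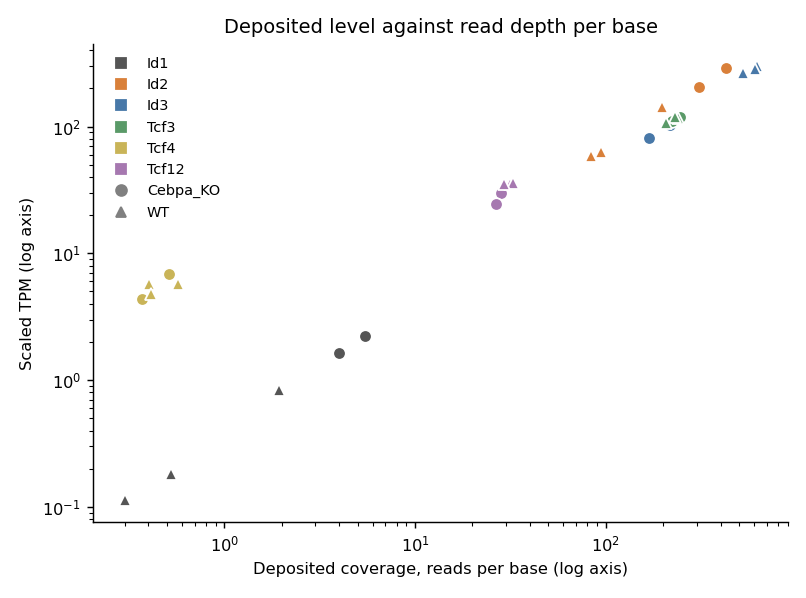
Scaled TPM against deposited read depth per base for the 6 genes in every library, both axes on a log scale, with circles for Cebpa_KO and triangles for WT. Id2, Id3, Tcf3, Tcf12 and Id1 rise along 1 band, and Tcf4 lies above it, with 4.38 to 6.90 scaled TPM at under 1 read per base.

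No tested gene close to an Id gene passed. Within 100 kb of each Id gene 3 genes were tested, and 0 of 3 passed at each locus by limma, with 0 at an unadjusted p under 0.05 (19.7% of all genes tested passed, and 37.6% had an unadjusted p under 0.05). The nearest tested genes to Id3, Gm13009 and E2f2, had log2 differences of -0.13 and -0.17. Those next to Id2, Kidins220 and Gm47705, had -0.39 and 0.27, and those next to Id1, H13 and Bcl2l1, had -0.26 and -0.04. None of these 6 genes passed. Within 100 kb of Tcf3, 1 of 6 tested genes passed, Mbd3, with a log2 change of 0.42 (limma adjusted p = 0.0382). By limma, 3 of these 6 had an unadjusted p under 0.05. The adjoining Uqcr11 and Rexo1 (0.34 and -0.20) did not pass, and Rexo1, 107 kb away, lay outside the window. The nearest tested gene to Tcf12 on the side of lower coordinates, Polr2m, had a log2 difference of 0.04 and did not pass. No tested gene lay within 100 kb of Tcf4, where the nearest were Rnmt (0.14) and 4930503L19Rik (0.22).

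Genes with the profile most like each member were sought among 10752 candidates, as the smallest root-mean-square distance between log2 profiles centred over the 5 libraries. Since the 5 libraries include both genotypes, a like profile includes a like difference between them. The nearest to Id3 were H2-Q2, Eno2 and Klrb1c (distances of 0.0659, 0.0939 and 0.101), and H2-Q2 belongs to a family of near-identical genes that can share reads. The nearest to Id2 were Cd70, Hip1 and Bcar1 (0.146, 0.171 and 0.172), each with WT replicate 3 between the groups. The nearest to Id1 were Capn5, Spry1 and Esm1 (0.0389, 0.0736 and 0.0818). Tcf12 was nearest to Emilin1, Smim19 and Sp4 (0.0137, 0.0242 and 0.0267), Tcf3 to Ankrd27, Tmem65 and Dus3l (0.0162, 0.0178 and 0.0184) and Tcf4 to Marcks, Cpne2 and Amacr (0.0263, 0.0487 and 0.0505). The profile of Tcf3 varied little, with an SD of 0.0668 on the log2 scale over the 5 libraries, against 0.799 for Id3 and 0.906 for Id2.

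The other genes of the pathway were read from lists, and every list count below is set beside the same background shares (9.93% higher and 9.82% lower, 18.8% each way at an unadjusted p under 0.05, and 13.7% higher and 11.5% lower without WT replicate 3) and the median log2 difference of 0.01 over all tested genes. Cxcr4 passed with each of the 5 libraries left out in turn. The other called list genes kept their direction but passed in only 1 to 3 of these fits. The list counts without WT replicate 3 were not planned beforehand, and none were made with another library left out. Cxcr5, Bcl6, Il2ra and Cd4 are also among the markers of sorted Tfr cells. Of 15 other helix-loop-helix genes and LIM partners, 5 were tested, of which 1 rose and 1 fell, with a median of 0.05. The gene that rose was Bhlhe40, a helix-loop-helix repressor, with 476 and 509 scaled TPM in Cebpa_KO, against 74.8, 77.7 and 176 scaled TPM in WT (log2 change 2.28 ± 0.39 SE, limma adjusted p = 0.0201). Its level in Cebpa_KO was above that of any of the 6 E and Id genes, and WT replicate 3 again lay nearest to Cebpa_KO. Ldb1, which joins LIM factors to E protein complexes, fell (log2 change -0.52, limma adjusted p = 0.0151), and Lmo4 and Lmo2 did not pass. Ascl2, the partner of E proteins known in mice for driving Cxcr5, overlapped, with 12.8 and 12.3 scaled TPM in Cebpa_KO, against 12.9, 9.61 and 14.1 scaled TPM in WT. Id4 was at most 0.0459 scaled TPM in any library and was not tested.

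Of 18 genes that carry BMP, TGF-beta and T cell receptor signals toward the Id genes, 13 were tested, of which 0 rose and 2 fell (2 higher and 5 lower at an unadjusted p under 0.05), with a median of -0.11. Tgfbr1, a TGF-beta receptor subunit, had 8.36 and 9.66 scaled TPM in Cebpa_KO, against 16.7, 19.1 and 18.0 scaled TPM in WT (log2 change -0.92 ± 0.12 SE, limma adjusted p = 0.0120). Egr2, a transcription factor that T cell receptor signals induce and that acts upstream of Id3 in mouse thymocytes, fell as well (log2 change -0.43, limma adjusted p = 0.0207). Its relative Egr1 (log2 difference -0.43) and the signal transducer Smad3 (-0.76) did not pass (limma adjusted p = 0.0546 and 0.0608). Without WT replicate 3, 1 gene of the list passed as higher (Smad2) and 3 as lower (Tgfbr1, Egr1 and Egr2).

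Of 13 lymphocyte genes known to be bound or regulated by E proteins, 10 were tested, of which 0 rose and 3 fell (0 higher and 6 lower at an unadjusted p under 0.05), with a median of -0.37. Cxcr4, a chemokine receptor gene under E protein control in mouse T cells, had 14.8 and 12.6 scaled TPM in Cebpa_KO, against 82.1, 68.3 and 81.5 scaled TPM in WT (log2 change -2.41 ± 0.13 SE, limma adjusted p = 0.00281). Foxo1, a transcription factor of lymphocyte homing and development, fell too (log2 change -0.95, limma adjusted p = 0.00623). Cxcr5, the follicular homing receptor by which the cells were sorted, had 181 and 141 scaled TPM in Cebpa_KO, against 298, 278 and 252 scaled TPM in WT (log2 change -0.78 ± 0.14 SE, limma adjusted p = 0.0206). Gfi1, a repressor, did not pass (log2 difference -0.48, limma adjusted p = 0.0526). The antigen receptor genes' recombinase subunits, Rag1 and Rag2, were at most 0.0209 scaled TPM. The same 3 genes were lower without WT replicate 3.

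Of 11 genes for cofactors and turnover of E and Id proteins, 10 were tested, of which 1 rose and 1 fell, with a median of -0.04. Cbfa2t3, a corepressor that binds E proteins, was low, with 1.69 and 1.23 scaled TPM in Cebpa_KO, against 0.118, 0.115 and 0.206 scaled TPM in WT (log2 change 1.10 ± 0.16 SE, limma adjusted p = 0.0146), and it met the filter only through the 2 Cebpa_KO libraries. Asb2, a ubiquitin ligase subunit reported to target E proteins, had 85.5 and 98.1 scaled TPM in Cebpa_KO, against 155, 148 and 207 scaled TPM in WT (log2 change -0.87 ± 0.17 SE, limma adjusted p = 0.0256). Usp1, a deubiquitinase that stabilizes Id proteins, did not pass (log2 difference 0.32, limma adjusted p = 0.0809), nor did the acetyltransferase gene Crebbp (-0.46, limma adjusted p = 0.105).

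Of 7 genes that are known to go with Id3 in T cells, all 7 were tested, 0 rose and 2 fell (0 higher and 3 lower at an unadjusted p under 0.05), with a median of -0.40. Bcl6, the transcription factor that defines follicular T cells, had 29.6 and 24.7 scaled TPM in Cebpa_KO, against 40.0, 55.3 and 55.1 scaled TPM in WT (log2 change -0.85 ± 0.18 SE, limma adjusted p = 0.0311). Cxcr5, given above, was the other. Ccr7 did not pass with all libraries (log2 difference -1.02, limma adjusted p = 0.0577) and was among 3 lower genes without WT replicate 3. Tcf7, whose product keeps T cells in a stem-like or follicular state, overlapped, with 724 and 676 scaled TPM in Cebpa_KO, against 699, 707 and 683 scaled TPM in WT (log2 difference 0.01, limma adjusted p = 0.958). Slamf6, a receptor of the same stem-like cells, overlapped as well (log2 difference 0.13, limma adjusted p = 0.466).

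Of 8 genes that are known to go with Id2 in T cells, all 8 were tested, 1 rose and 1 fell, with a median of 0.45. Tbx21, the gene of the effector regulator T-bet, had 40.7 and 49.3 scaled TPM in Cebpa_KO, against 15.6, 13.8 and 19.0 scaled TPM in WT (log2 change 1.43 ± 0.17 SE, limma adjusted p = 0.00923). Il2ra, the IL-2 receptor alpha chain and a gene of regulatory as well as effector cells, fell (log2 change -0.54, limma adjusted p = 0.0438). Il12rb2 and Cxcr6 did not pass (log2 differences 0.44 and 1.70, limma adjusted p = 0.0991 and 0.105), and Il12rb2 met the filter only through the Cebpa_KO libraries. Without WT replicate 3 the genes that passed were 3 higher (Tbx21, Gzmb and Cxcr6) and 1 lower (Il2ra). Id2 passed in that fit too. With WT replicate 3 included, the groups overlapped for Gzmb (limma adjusted p = 0.339). Gzmb was highest in WT replicate 3, at 49.8 scaled TPM, against 31.9 and 49.5 scaled TPM in Cebpa_KO. In WT replicates 1 and 2 Gzmb was below both Cebpa_KO libraries. For Cxcr6, WT replicate 3 lay just below Cebpa_KO replicate 1.

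**Figure D5:**
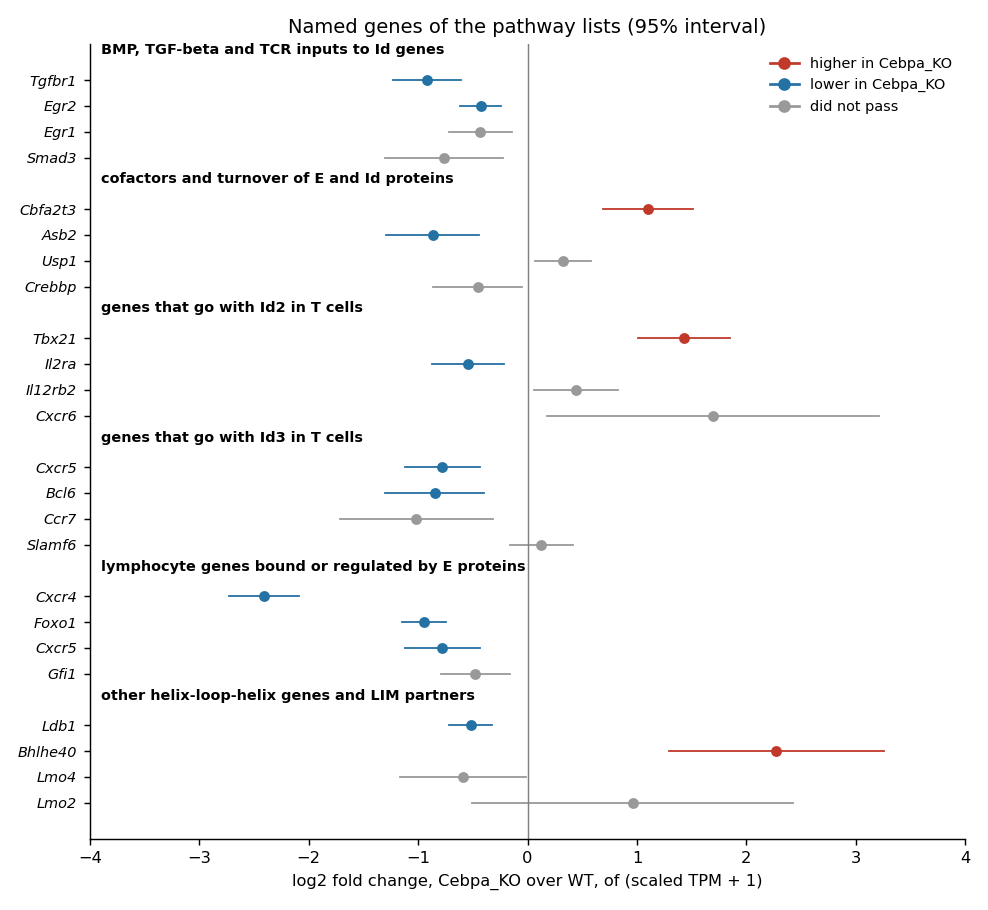
Log2 change, Cebpa_KO over WT, on the scale of scaled TPM + 1, with its 95% interval for the up to 4 genes of each pathway list with the smallest p; red passed as higher in Cebpa_KO, blue as lower and grey did not pass. Cxcr4 (-2.41) lies furthest to the left and Bhlhe40 (2.28) furthest to the right.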

How the data were processed

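RNA was measured in 5 libraries, 2 of Cebpa_KO and 3 of WT, grouped by their titles. Per the labels' protocols, cDNA came from a low-input SMART-Seq kit and was tagmented. STAR 2.7.11b, StringTie 2.1.3b and the build mm39 are named in the submitters' processing notes. For the annotation release and the strand setting, the sources used here give nothing. The TPM values deposited by the authors were treated as a score, because assembled loci sum to 1000000 per library and annotated rows repeat 96.7% to 97.6% of that; annotated rows were used. Coverage deposited by the authors is a signal in reads per base, and FPKM deposited by the authors gave an alternative and, with coverage, the depth of 6.76 to 7.08 gigabases. Read counts were not among these values, and counting intervals were not used.

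TPM rows that share a gene ID were added up, and libraries were scaled by the median ratio over 13864 genes (factors 0.998 and 1.01 in Cebpa_KO; 0.994, 1.04 and 0.984 in WT). Genes that reached a TPM of 1 in 2 or more of the 5 libraries were tested on log2(scaled TPM + 1) by limma (version 3.58.1, R version 4.3.3), with the trend option and Benjamini-Hochberg adjustment over 16254 genes. The pipeline was tested on simulated data. P-values measure the spread between pools of mice. The members, lists and tests were chosen with earlier results of these data known. Named genes were the 6 members, Cebpa and Foxp3, up to 4 tested genes per pathway list with the smallest p, the nearest tested gene on each side of a member, and the 3 nearest profiles per member, without gene models, pseudogenes and receptor segments (some items are not reported here); others, such as Hspa1a, Mbd3, Ascl2 and the marker genes, were named after their values were seen. Gene types came from GENCODE M21, matched for 51880 of 57186 IDs; coordinates are those of the deposited tables. Promoter sequences are RefSeq's, on GRCm38.p6. Alternatives covered the pseudocount, filter, scaling, weights, variance prior, unit, a replicate block and each library left out.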

Additional observations from a re-analysis of the deposited data

How the results depend on the processing

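The 1614 genes higher and 1596 lower in Cebpa_KO became 930 and 629 with no filter on low values, 2575 and 2440 with array weights, and 1014 and 647 when WT replicate 3 alone stood for WT, which is then assumed to vary like the other group. With 1 library left out the counts ran from 5 to 2177 higher and from 18 to 1825 lower. They were 9 and 25 without Cebpa_KO replicate 1, 5 and 18 without Cebpa_KO replicate 2, 966 and 1013 without WT replicate 1, and 437 and 390 without WT replicate 2. Most calls, though not those of Cxcr4 and Foxp3, were thus lost without either Cebpa_KO library, in fits where the lone Cebpa_KO library is assumed to vary like WT.

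Id3 passed in 16 of 17 alternatives, with log2 changes from -1.78 to -1.44 when 1 library was left out. Id1 missed the threshold at a pseudocount of 0.1 (2.40, limma adjusted p = 0.0736), with no filter (1.12, adjusted p = 0.144) and against WT replicate 3 alone (0.67, adjusted p = 0.154); it ran from 0.99 to 1.36 with 1 library left out, and had no value with a filter at a TPM of 5, on FPKM or without either Cebpa_KO library. Id2 kept its direction in all 17 alternatives but passed in only 4 of them and did not pass in 13. It passed with a filter at a TPM of 5 (1.58, limma adjusted p = 0.0484) and with array weights (1.77, limma adjusted p = 0.0130). The others were the fit without WT replicate 3 and the replicate block (1.98, limma adjusted p = 0.0189). No Cebpa_KO library shares the number of WT replicate 3, so the block also takes the group difference without that library. The block and the fit without WT replicate 3 are thus not separate checks of Id2. The log2 difference of Id2 ran from 1.34 to 1.98 with 1 library left out. Tcf12 passed only with array weights (-0.38, adjusted p = 0.0498). Tcf3 changed sign with quantile normalization (-0.00506), against WT replicate 3 alone (-0.0517) and when 1 library was left out (-0.0293 to 0.0796), and Tcf4 against WT replicate 3 alone (-0.0601) and when 1 library was left out (-0.25 to 0.31). On loci assembled in each library, the WT mean was 6.14 for Tcf4 (5.42 on annotated rows) and 40.8 for Tcf12 (35.4 on annotated rows). The cause was not tested.

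Replicate numbers were not shown to pair libraries: deviations correlated at -0.179 for number 1 and 0.269 for number 2. With only 2 Cebpa_KO libraries, each value is fixed as the negative of that with the other Cebpa_KO library. These values therefore cannot decide pairing. WT replicate 3 and Cebpa_KO replicate 1, which share no number, correlated at 0.315. A replicate block gave 1359 genes higher and 1050 lower. In that fit WT replicate 3, whose number no Cebpa_KO library shares, adds nothing to the group difference.

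For 54 other named genes, 751 of 892 values kept direction and side of the threshold, 88 lost the call, 22 gained it and 31 changed sign. The changes of sign were in 12 genes that had not passed. They were Bcl2l1 with array weights (0.0311) and the block (0.16), Gm13009 (0.00459), Rnmt (-0.0256), Polr2m (-0.0261) and Tmem65 (0.0332) with the block, Polr2m (-0.0310) and Tmem65 (0.000277) with quantile normalization, and against WT replicate 3 alone E2f2 (0.12), Ankrd27 (-0.0427), Dus3l (-0.0374), Marcks (-0.0503) and Cpne2 (-0.0262). With 1 library left out, log2 differences ran from -0.0261 to 1.95 for Lmo2, -0.27 to 0.20 for Bcl2l1, -0.29 to 0.0110 for Gm13009, -0.33 to 0.00565 for E2f2, -0.0297 to 0.30 for Rnmt, -0.0304 to 0.0908 for Polr2m, -0.0223 to 0.0818 for Ankrd27, -0.0669 to 0.0473 for Tmem65, -0.0107 to 0.0666 for Dus3l, -0.22 to 0.34 for Marcks, -0.16 to 0.29 for Cpne2 and -0.18 to 0.35 for Amacr. Levels under 1 read per base (Tcf4, and Id1 in WT replicates 1 and 2) limit what these libraries can show.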

Other observations

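Among helix-loop-helix genes too low to test, Msc, which encodes the E protein partner musculin, was listed at 0.640 and 1.01 scaled TPM in Cebpa_KO libraries, against 0, 0.0260 and 0.0532 scaled TPM in WT libraries. Bhlhe41, the relative of Bhlhe40, was lower in both Cebpa_KO libraries (0.194 and 0.211 scaled TPM) than in WT libraries (0.623, 0.619 and 0.951 scaled TPM). Bhlhe40 and Bhlhe41 thus lay on opposite sides, and Bhlhe41 was below 1 scaled TPM throughout. Of the B cell markers, Cd22 fell (20.2 and 4.69 scaled TPM in Cebpa_KO, against 56.7, 66.3 and 65.9 scaled TPM in WT, limma adjusted p = 0.0311), while the other 5 tested markers of that list did not pass. These genes were named after their values were seen.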
